A study of Mus musculus with 52 samples.

Results

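The phagocyte NADPH oxidase was followed through 5 of its genes, Cybb, Cyba, Ncf1, Ncf4 and Rac2. They are 5 of the 55401 mouse genes in the deposited count table, chosen by name, and all 5 passed the filter on low counts in every tissue. Poly(A) RNA of mice on the FVB/NJ background had been sequenced in 3 tissues, the spinal cord, the cortex of the brain and skeletal muscle. Wild type mice (labelled FVB_WT) and mice carrying a human PFN1 transgene with the C71G change (labelled PFN1_C71G) received vehicle, and a further arm of transgenic mice received an adeno-associated virus carrying an artificial microRNA against Atxn2 (labelled amiR_ATXN2, here the treated arm). Each arm had 6 libraries per tissue, except 5 for wild type cortex and 5 for vehicle-treated transgenic muscle, which made 18, 17 and 17 libraries by tissue. Both sexes were present in every arm. All wild type mice were 36 weeks old, and 11 transgenic libraries came from mice of 38 or 39 weeks. There was no treated wild type arm and no arm given a control vector, so that an effect of the vector and an effect of lowering Atxn2 cannot be told apart. The promoter that drives the transgene and the dose and route of the vector were not given in the sources used here. The labels do not say which tissues came from the same mouse, and p-values measure the spread between these libraries.

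The oxidase moves electrons from NADPH across a membrane to oxygen and makes superoxide, which neutrophils and macrophages use against microbes. The parts sit apart in a resting cell: a membrane-bound cytochrome of the Cybb and Cyba products, and a cytosolic complex that includes the products of Ncf1 and Ncf4. On stimulation the cytosolic complex and a Rac GTPase join the cytochrome. In the central nervous system microglia are the best-known source of this enzyme, and in muscle the resident and infiltrating macrophages and neutrophils carry it.

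On the GRCm38 build, Cybb (chrX:9435252-9487771, minus strand) encodes the catalytic subunit, gp91phox or NOX2. Cyba (chr8:122424776-122432930, minus strand) encodes its membrane partner p22phox. Ncf1 (chr5:134220053-134229625, minus strand) encodes p47phox, the organizer whose phosphorylation starts assembly, and its exons overlap those of Gtf2ird2 on the other strand. Whether counting used strand was not given in the sources used here, so reads from that overlap cannot be assigned. Ncf4 (chr15:78244801-78262580, plus strand) encodes p40phox, which binds phosphoinositides. Rac2 (chr15:78559167-78572783, minus strand) encodes the Rac GTPase of blood cells. No 100-base window of the transcripts of these 5 genes was found in another gene's transcripts.

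The promoters of the 3 members that the RefSeq table held (build GRCm38.p6) are shown because these genes changed by different amounts. Each is the 250 bases before the RefSeq start, read 5′ to 3′ on the gene's strand. They lie at chrX:9469325-9469574 for Cybb, which is inside the longer annotated gene span given above, at chr8:122432941-122433190 for Cyba and at chr5:134229626-134229875 for Ncf1, all on the minus strand. Capitals mark matches to GAAANNGAAA, the core of the element bound by interferon regulatory factors, on either strand.
Cybb: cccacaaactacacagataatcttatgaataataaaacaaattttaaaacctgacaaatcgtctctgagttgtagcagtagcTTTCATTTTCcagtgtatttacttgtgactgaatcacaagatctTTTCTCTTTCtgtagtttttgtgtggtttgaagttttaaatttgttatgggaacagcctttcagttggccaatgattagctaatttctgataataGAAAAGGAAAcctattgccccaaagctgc
Cyba: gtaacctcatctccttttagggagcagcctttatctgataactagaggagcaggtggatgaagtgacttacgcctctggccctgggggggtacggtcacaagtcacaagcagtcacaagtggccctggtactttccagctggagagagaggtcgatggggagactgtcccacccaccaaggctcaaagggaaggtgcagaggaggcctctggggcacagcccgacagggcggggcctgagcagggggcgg
Ncf1: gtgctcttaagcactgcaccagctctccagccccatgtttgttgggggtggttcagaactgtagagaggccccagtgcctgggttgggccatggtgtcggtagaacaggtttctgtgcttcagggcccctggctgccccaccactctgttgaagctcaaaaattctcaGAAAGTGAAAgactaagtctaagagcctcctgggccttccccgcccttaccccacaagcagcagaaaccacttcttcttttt
The Cybb window held this motif at 3 places, from base -168 to -159 and from -124 to -115 on the opposite strand and from -29 to -20 on the gene's strand. The Ncf1 window held it once, from -82 to -73, and the Cyba window did not hold it. Of all 32851 promoter windows of the same length, 2.98% held it. CCAAT, the core of the CCAAT box, was in the Cybb window from -56 to -52 and in 33.8% of all windows. GAGGAA, a core bound by the myeloid factor PU.1, was in none of these 3 windows and in 23.3% of all windows. The searches covered both strands, no 2 motifs overlapped in these windows, and a match describes the letters only.

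Library totals ranged from 66481829 to 111885193 counts. Levels are in CPM, counts scaled to the size of the library, and 1 CPM stood for 66.5 to 111.9 counts before scaling. Human PFN1 was at 170 to 1613 CPM in every transgenic library and at or below 0.0143 CPM in wild type. Sequence of the vector's terminal repeats was at 46.7 to 99.5 CPM in treated spinal cord, 34.9 to 81.0 in treated cortex, and 0.00973 to 0.0505 in treated muscle. It was at or below 0.0254 CPM in all vehicle libraries. Atxn2 itself, before scaling, was at 68.2 to 77.5 CPM in treated and 106 to 115 CPM in vehicle transgenic spinal cord, without overlap. It was at 73.6 to 92.5 CPM in treated and 90.2 to 109.6 CPM in vehicle transgenic cortex, and at 55.9 to 69.9 and 61.1 to 69.3 CPM in muscle, with overlap in both tissues. The labels of 4 spinal cord libraries conflict: by title they are vehicle replicates 5 and 6 and treated replicates 1 and 2 of the transgenic arms, and their library names swap the arms. Titles were used, the vector and Atxn2 values in spinal cord follow the titles, and calls on named genes and ratios that the library names would end are given under both. RNA integrity numbers in spinal cord were 7.2 to 8.3 in wild type, 7.2 to 7.7 in vehicle transgenic and 7.1 to 8.3 in treated libraries. The neuronal markers Snap25, Rbfox3 and Syt1, summed, were at 1947 to 4748 CPM in both nervous tissues and at most at 1.28 in muscle. In spinal cord this sum was 2760 to 3063 CPM in wild type, 2157 to 2331 in vehicle transgenic and 1947 to 2446 in treated libraries. The part of this difference in other genes' levels was not tested. Summed muscle markers reached 418 CPM in 1 treated spinal cord library, where the median of that arm was 3.58.

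In spinal cord all 5 subunits rose with the transgene, Cybb by the largest factor of the 5. Catalytic Cybb went from a wild type level close to those of Cyba and Rac2 to the most counted of the members. Its membrane partner Cyba had the next largest factor. The lowest, median and highest wild type libraries had 1.46, 1.91 and 2.69 CPM of Cybb (mean 2.01 ± 0.50, SD, n = 6), and the transgenic vehicle libraries had 33.8, 42.3 and 48.9 CPM (41.4 ± 6.37, n = 6). Every transgenic library was far above every wild type library. The difference was 4.37 on the log2 scale, 20.6-fold (SE 0.32, edgeR quasi-likelihood test with Benjamini-Hochberg adjustment over all genes, adjusted p = 1.46e-07). Cyba was at 1.80, 2.49 and 2.72 CPM in wild type (2.41 ± 0.33) and at 17.2, 17.9 and 18.6 CPM with the transgene (17.97 ± 0.52). The arms again did not overlap, and the vehicle transgenic libraries lay close together. The Cyba difference was 2.90 on the log2 scale, 7.44-fold (SE 0.24, edgeR adjusted p = 2.47e-07).

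Among the cytosolic subunits, Ncf4 was at 0.815, 0.942 and 1.22 CPM in wild type (0.984 ± 0.147) and at 4.23, 5.18 and 5.62 CPM with the transgene (5.06 ± 0.51). The organizer Ncf1 was at 4.99, 6.07 and 7.36 CPM in wild type (6.15 ± 0.84) and at 16.8, 19.5 and 21.1 CPM with the transgene (19.3 ± 1.44). It began highest in counts and had the smallest fold of the 5. The GTPase Rac2 was at 1.84, 2.57 and 2.77 CPM in wild type (2.37 ± 0.40) and at 7.96, 8.41 and 10.1 CPM with the transgene (8.66 ± 0.82). The log2 differences were 2.36 for Ncf4 (SE 0.21, edgeR adjusted p = 3.65e-07), 1.65 for Ncf1 (SE 0.16, 8.37e-07) and 1.87 for Rac2 (SE 0.13, 1.28e-07). Thus 5 of 5 members were called higher, beside 18.8% of the 20307 genes tested, and for 5 of 5 the groups did not overlap, beside 11.8% of genes. Tissue RNA cannot tell more cells of a type from more RNA per cell.

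**Figure D1:**
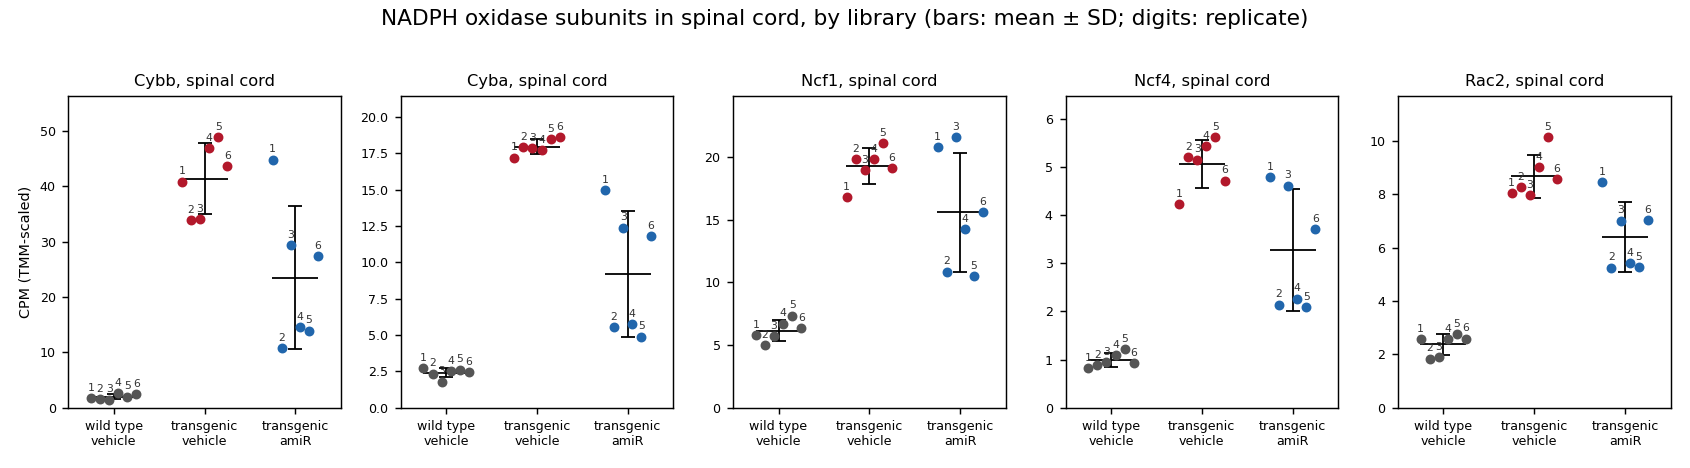
CPM (TMM-scaled, linear axis from 0) of each subunit in the 18 spinal cord libraries by arm; points are libraries with their replicate number, bars the mean ± SD. Wild type libraries lie below all transgenic libraries for each gene, and treated libraries spread from near the vehicle transgenic level to much lower.

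Levels were also divided by exon length in kilobases, with all annotated exons of a gene merged. Genes can be compared on this scale only roughly, since the length of the transcripts actually made was not measured. Cyba led in both arms of spinal cord, with a mean of 2.32 CPM per kb in wild type and 17.3 with the transgene. Cybb was the lowest of the 5 in wild type, at 0.346 CPM per kb, and second with the transgene, at 7.12. Ncf1 went from 1.68 to 5.26, Rac2 from 0.765 to 2.79 and Ncf4 from 0.487 to 2.503 CPM per kb.

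The marker genes of microglia and macrophages moved as well. Of 11 such genes, 10 were called higher with the transgene, with a median log2 difference of 1.70 where the median of all genes was -0.00045, and none was at 0 in any library group. Their summed level was 303 to 425 CPM in wild type, 944 to 1196 in vehicle transgenic and 513 to 1148 in treated spinal cord. Of 9 neutrophil genes tested 1 was called higher, and the neutrophil sum was 1.27 to 37.5 CPM in wild type, 10.4 to 102 in vehicle transgenic and 12.1 to 25.5 in treated libraries. The lymphocyte sum was 0.285 to 0.746 CPM in wild type, 0.763 to 1.92 in vehicle transgenic and 1.49 to 2.28 in treated libraries. With the transgene 6 of 7 lymphocyte genes were called higher, at low counts. The highest mean of any of them in an arm was 0.393 CPM. The part of each cell type in the subunits' levels was not tested.

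The subunits differed in how far they moved relative to the microglial and macrophage genes. For each library the mean log2 CPM of the 11 markers was subtracted from the log2 CPM of each member (both with 0.5 CPM added), and arms were compared by two-sided exact permutation tests, 15 per tissue, whose smallest possible p is 0.00216 for 6 against 6 libraries. Relative to the markers, Cybb was at -2.81 ± 0.29 in wild type and -0.45 ± 0.16 with the transgene (SD, n = 6), a difference of 2.36 (exact permutation p = 0.00216, adjusted 0.00812). Cyba was at -2.58 ± 0.15 and -1.62 ± 0.11, a difference of 0.97 (exact permutation p = 0.00216, adjusted 0.00812). For both genes of the cytochrome the arms did not overlap. The relative differences were 0.20 for Ncf4 (exact permutation p = 0.0216, adjusted 0.0541), -0.13 for Ncf1 (0.0671, adjusted 0.112) and -0.03 for Rac2 (0.688, adjusted 0.860). With a marker list that left out homeostatic microglial genes, 3 members were lower than the markers, and the Ncf4 difference was -0.21.

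**Figure D2:**
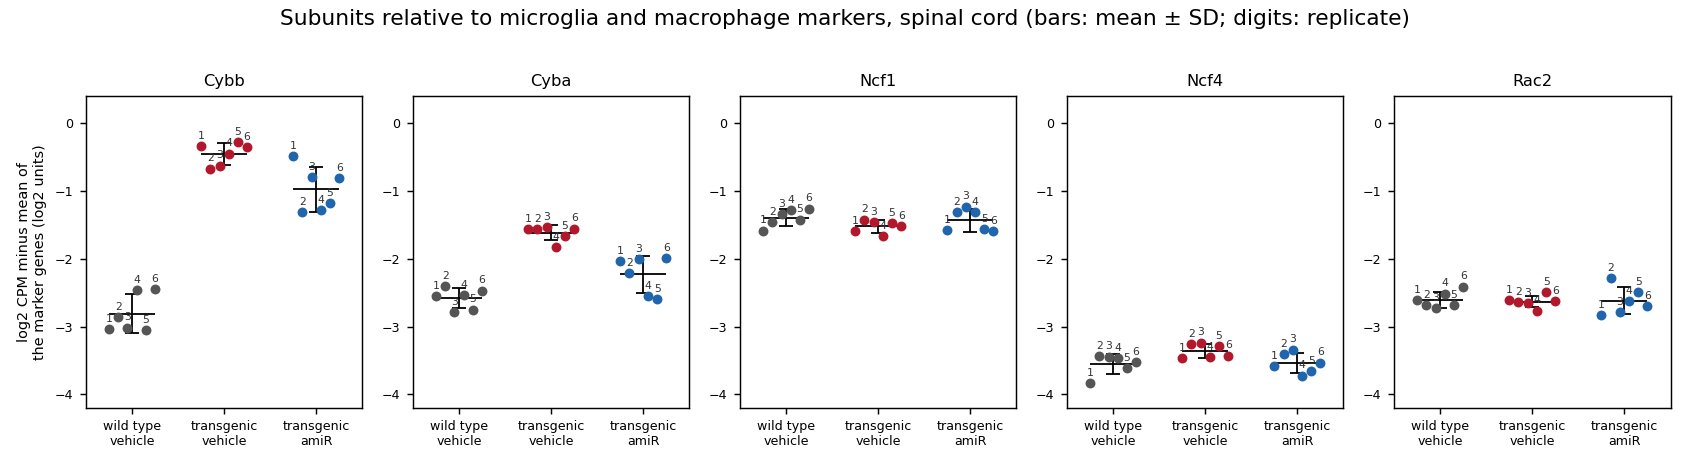
Log2 CPM of each subunit minus the mean log2 CPM of 11 microglia and macrophage marker genes in the 18 spinal cord libraries by arm; points are libraries with their replicate number, bars the mean ± SD. Cybb and Cyba stand higher in vehicle transgenic than in wild type libraries without overlap, and Ncf1, Ncf4 and Rac2 overlap between arms.

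Partners within the complex also differed from each other. The log2 ratio of Cybb to Cyba went from -0.23 ± 0.24 to 1.17 ± 0.22 with the transgene, a difference of 1.40 (exact permutation p = 0.00216, adjusted over 9 ratio tests 0.00325). The ratio of Ncf1 to Ncf4 fell by 0.33 on the log2 scale (exact permutation p = 0.00216, adjusted 0.00325). The 0.5 CPM added before logs makes the change of a low-count gene such as Ncf4 smaller, here and relative to the markers. The edgeR log2 differences were 1.65 for Ncf1 and 2.36 for Ncf4. Rac2 rose against Rac1, the GTPase that most cells make: the log2 ratio went from -6.73 ± 0.16 to -5.14 ± 0.15 (difference 1.59, exact permutation p = 0.00216, adjusted 0.00325). For all 3 ratios the arms did not overlap.

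Of 14 partners of the oxidase, 9 were called higher with the transgene in spinal cord, 1 lower, beside 17.9% of all genes called lower, and 4 neither, with a median log2 difference of 1.27. Hvcn1, the proton channel that balances the oxidase's charge, was at 2.91 (SE 0.25, edgeR adjusted p = 3.34e-07). Vav1, an exchange factor for Rac, was at 2.02, the kinase Syk at 1.77 and Arhgdib at 1.53, and each passed. The complex's widely expressed parts did not pass: Rac1 was at 0.09 (edgeR adjusted p = 0.0847), Rap1a at 0.10 (0.369) and Cybc1, which helps the cytochrome mature, at -0.05 (0.450). Prkcb, a kinase of Ncf1's product, was lower, at -0.15 (0.0427).

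Transcription factors that act on these genes in myeloid cells were higher too: Irf8 by 2.36 on the log2 scale, Spi1, which encodes PU.1, by 1.98 and Irf1 by 0.83, 3 of 3 tested, while Cebpe was not tested. Of other NADPH oxidase genes 4 of 5 tested rose, namely Duoxa1 (1.80), Duox2 (1.35), Nox4 (1.01) and Noxo1 (0.39). The antioxidant list was mixed, with 7 of 18 called higher, 4 lower and a median of 0.10. Heme oxygenase Hmox1 rose by 1.43 and the peroxiredoxin Prdx6 by 1.06, while mitochondrial Sod2 fell by 0.35 (edgeR adjusted p = 0.000868).

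Treatment was compared with the same vehicle transgenic libraries that the transgene comparison used, so both comparisons share them. Of the 5 members, Cyba alone was called lower in treated spinal cord, beside 2.19% of genes called lower, and 4745 of the 20307 genes had an unadjusted p under 0.05. In treated libraries Cyba was at 4.89, 8.78 and 15.0 CPM (lowest, median, highest; mean 9.23 ± 4.33, n = 6). Each of the 6 lay below all 6 vehicle libraries, which 1.07% of genes also showed in that direction. Cyba fell by 0.97 on the log2 scale (SE 0.23, 95% interval -1.45 to -0.49, edgeR adjusted p = 0.0247). This call was lost when RNA integrity was a covariate (adjusted p = 0.0611), without mice older than 36 weeks (0.0870), without the 4 libraries with conflicting labels (0.0523), and without vehicle replicate 5 (0.0535), treated replicate 4 (0.0761) or treated replicate 5 (0.0563), with log2 differences from -0.97 to -0.84. With arms taken from the library names the edgeR difference was -0.42 (adjusted p = 0.605). Those arms count treated replicates 1 and 2, with vector sequence at 46.7 and 52.1 CPM, as vehicle. They count vehicle replicates 5 and 6, with vector sequence at 0 CPM, as treated. Arms that mix libraries with and without vector cannot show whether the call holds.

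Cybb in treated spinal cord was at 10.8, 20.97 and 44.8 CPM (23.5 ± 12.9), and 5 of 6 libraries lay below all vehicle libraries. The edgeR difference was -0.80 (SE 0.28, 95% interval -1.39 to -0.22, adjusted p = 0.0937). Ncf4 was at 2.08, 2.99 and 4.79 CPM (3.27 ± 1.27), with 4 of 6 below all vehicle libraries and a difference of -0.63 (SE 0.20, edgeR adjusted p = 0.0690). Rac2 was at 5.25, 6.21 and 8.46 CPM (6.41 ± 1.31), with 5 of 6 below and a difference of -0.43 (SE 0.13, edgeR adjusted p = 0.0602). Ncf1 was at 10.5, 14.9 and 21.6 CPM (15.6 ± 4.76), with 4 of 6 below and a difference of -0.30 (SE 0.16, edgeR adjusted p = 0.257). None of these 4 passed the threshold with all libraries, and each group overlapped the vehicle group. Without treated replicate 1, Cybb (-1.11, edgeR adjusted p = 0.00603), Ncf4 (-0.77, 0.0160) and Rac2 (-0.54, 0.00687) passed, and without treated replicate 3 Ncf4 passed (-0.75, 0.0363). The library name of treated replicate 1 places it in the vehicle arm. Its vector sequence (46.7 CPM) and Atxn2 (76.2 CPM) follow its title. DESeq2 called Cyba (adjusted p = 0.000744), Cybb (0.0488), Ncf4 (0.0185) and Rac2 (0.0141), beside 11.0% of all genes that it called in either direction.

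The treated spinal cord libraries kept a like order from gene to gene. As a share of the vehicle transgenic mean, Cybb was at 108%, 26.1%, 71.02%, 35.2%, 33.7% and 66.2% in the libraries numbered 1 to 6, and Cyba at 83.2%, 31.0%, 69.0%, 32.1%, 27.2% and 65.6%. Replicates 2, 4 and 5 were the 3 lowest for each of the 5 genes, replicate 2 from a female of 38 weeks and replicates 4 and 5 from males of 36 weeks. Human PFN1, before scaling, was at 609, 879, 606, 1041, 1165 and 788 CPM in the libraries numbered 1 to 6, so highest in these replicates. It was at 633 to 736 CPM in vehicle transgenic spinal cord, and the part of this difference was not tested. Over the 6 libraries Ncf1 ranged from 54.4% to 112.1% of the vehicle mean, Ncf4 from 41.2% to 94.8% and Rac2 from 60.6% to 97.6%. The summed microglia and macrophage markers were at 1148, 513, 917, 663, 599 and 894 CPM in the libraries numbered 1 to 6, so that the same replicates 2, 4 and 5 were lowest. Their part in the subunits' values was not tested.

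**Figure D3:**
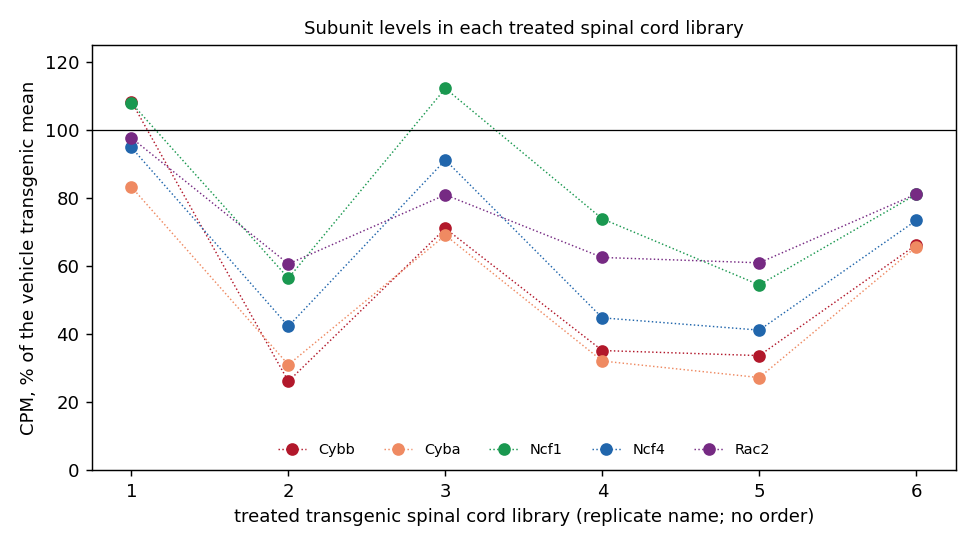
CPM of each subunit in the 6 treated transgenic spinal cord libraries, as a percentage of the mean of the 6 vehicle transgenic libraries (line at 100); dotted lines join a gene's points for reading only. Replicates 2, 4 and 5 are the 3 lowest for all 5 genes.

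Relative to the 11 markers, Cyba was lower with treatment by 0.61 (-2.23 ± 0.28 against -1.62 ± 0.11, exact permutation p = 0.00216, adjusted 0.00812) and Cybb by 0.53 (-0.97 ± 0.33 against -0.45 ± 0.16, exact permutation p = 0.00866, adjusted 0.0260). The Cyba groups did not overlap. The relative difference of Ncf4 was -0.19 (exact permutation p = 0.0346, adjusted 0.0649), of Ncf1 0.09 (0.268, adjusted 0.403) and of Rac2 0.01 (0.909, adjusted 0.913). Within the complex, the ratio of Ncf1 to Ncf4 was higher by 0.28 with treatment (exact permutation p = 0.00216, adjusted 0.00325) and that of Rac2 to Rac1 lower by 0.35 (0.0130, adjusted 0.0167). For Cybb over Cyba the difference was 0.09 (exact permutation p = 0.485, adjusted 0.545). Arms taken from the library names, a choice added after seeing the data, mix libraries with and without vector. With those arms none of these relative differences and ratios passed with treatment. Cyba was then at -0.27 (exact permutation test, adjusted p = 0.510) and Cybb at -0.13 (0.703) relative to the markers, Ncf1 over Ncf4 at 0.15 (0.250) and Rac2 over Rac1 at -0.091 (0.604). Among the partners 1 of 14 was called lower, Syk (-0.64, edgeR adjusted p = 0.0366), with Hvcn1 at -0.82 (0.0523), Rac1 at -0.08 (0.280), Cybc1 at -0.09 (0.289) and Rap1a at 0.02 (0.940). Of the 18 antioxidant genes Prdx2 alone was called, 0.18 higher (edgeR adjusted p = 0.0396), beside 2.92% of genes called higher, and none of 5 other oxidase genes or 3 transcription factors was called. Under the library names neither passed, with Syk at -0.36 (edgeR adjusted p = 0.510) and Prdx2 at -0.016 (0.947). The Syk call was also lost with RNA integrity as a covariate (0.0687), without mice older than 36 weeks (0.113), with library size as the scaling (0.0553), with the replicate block (0.0508) and without any 1 of the 6 vehicle transgenic or of treated replicates 2, 4 and 5 (0.0555 to 0.112). Prdx2 was lost with no filter (0.0929) and without the 4 libraries with conflicting labels (0.203), among other choices.

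Treated transgenic spinal cord remained above wild type for all 5 members, called higher beside 14.6% of genes, and every treated library was above every wild type library, beside 7.12% of genes. The log2 differences were 3.56 for Cybb (SE 0.32, edgeR adjusted p = 1.20e-06), 1.92 for Cyba (SE 0.24, 1.85e-05), 1.72 for Ncf4 (SE 0.21, 1.52e-05), 1.44 for Rac2 (SE 0.13, 1.70e-06) and 1.343 for Ncf1 (SE 0.16, 1.50e-05). Relative to the markers Cybb was 1.84 above wild type (exact permutation p = 0.00216, adjusted 0.00812) and Cyba 0.35 (0.0303, adjusted 0.0649), and the other 3 differed by -0.04 to 0.01. The ratio of Cybb to Cyba was 1.48 above wild type and that of Rac2 to Rac1 1.24 above (exact permutation p = 0.00216, adjusted 0.00325 for both), while Ncf1 over Ncf4 was at -0.05 (0.554). This last value depends on the 0.5 CPM added, since the edgeR differences were 1.343 for Ncf1 and 1.72 for Ncf4. With 0.1 CPM added instead, 1 ratio was called lower than wild type in this comparison. Of the 14 partners 9 were called higher and Cybc1 lower (-0.15, edgeR adjusted p = 0.0443, beside 11.0% of genes called lower), with Hvcn1 at 2.09, Rac1 at 0.02 and Rap1a at 0.12. Spi1 (1.55), Irf8 (1.76) and Irf1 (0.84) passed as well, as did Duoxa1 (2.16) and Nox4 (0.67), and 7 antioxidant genes were called higher and 2 lower.

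Sex was examined in spinal cord, where each arm had 3 females and 3 males. The difference between male and female in the transgene change was -0.23 to -0.11 over the 5 members, with no member called, beside 6.95% of genes called higher and 2.62% lower. For treatment the difference was -0.97 for Cybb, -0.63 for Ncf4, -0.60 for Cyba, -0.51 for Ncf1 and -0.42 for Rac2 (edgeR adjusted p from 0.382 to 0.519). No member and 0.0% of genes passed that test, while 2929 genes had an unadjusted p under 0.05. All 4 spinal cord mice older than 36 weeks were female, so sex and age cannot be fully told apart.

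In muscle all 5 subunits also rose with the transgene, beside 25.7% of the 16949 genes called higher, by factors of 1.21 to 2.38. Ncf1 led here. It was at 0.425, 1.22 and 1.49 CPM in wild type (lowest, median, highest; 1.07 ± 0.40, n = 6) and at 2.40, 2.21, 2.91, 2.64 and 2.75 CPM in the 5 transgenic libraries (2.58 ± 0.28), a log2 difference of 1.25 (SE 0.26, edgeR adjusted p = 0.000840). Cybb was at 0.838, 2.38 and 2.91 CPM in wild type (2.10 ± 0.82) and at 3.10, 3.84, 4.63, 5.77 and 4.58 CPM with the transgene (4.39 ± 1.00), a difference of 1.06 (SE 0.26, edgeR adjusted p = 0.00301). Rac2 was at 0.580, 0.700 and 1.12 CPM in wild type (0.759 ± 0.197) and at 1.47, 1.58, 1.83, 1.40 and 1.46 CPM with the transgene (1.55 ± 0.17), a difference of 1.03 (SE 0.19, edgeR adjusted p = 0.000252). For these 3 genes the arms did not overlap, beside 14.5% of genes.

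Ncf4 and Cyba overlapped between arms in muscle. Ncf4 was at 0.292, 0.469 and 0.729 CPM in wild type and at 0.905, 0.706, 1.25, 0.797 and 0.742 CPM with the transgene, a log2 difference of 0.84 (SE 0.22, edgeR adjusted p = 0.00502). Cyba was at 2.23, 2.63 and 2.99 CPM in wild type and at 2.704, 3.79, 3.26, 2.77 and 3.19 CPM with the transgene, a difference of 0.28 (SE 0.11, edgeR adjusted p = 0.0421). The Cyba call was the least stable of the 5. It was lost without wild type replicate 1 (adjusted p = 0.0841), 3 (0.0630) or 6 (0.0852), without transgenic replicate 2 (0.156), 3 (0.0858) or 5 (0.0771), with no filter on low counts (0.0711), without mice older than 36 weeks (0.118) and with replicate number as a block (0.0642).

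Markers moved in muscle too. The microglia and macrophage sum was 18.3 to 41.1 CPM in wild type, 59.2 to 67.7 in vehicle transgenic and 24.4 to 53.5 in treated muscle, with 10 of 11 genes called higher with the transgene. The neutrophil sum was 0.339 to 2.44 CPM in wild type, 4.61 to 16.5 in vehicle transgenic and 1.84 to 13.8 in treated libraries, with 2 of 5 tested genes called higher with the transgene and Elane at 0 in both vehicle arms. All 4 muscle genes (Ckm, Acta1, Myh4 and Tnnt3) were lower, their sum at 77722 to 108328 CPM in wild type, 38888 to 58658 in vehicle transgenic and 52464 to 71787 in treated muscle. Their part in the subunits' differences was not tested. Relative to the macrophage markers no member passed: Cyba was at -0.79 without overlap between arms (exact permutation p = 0.00649, adjusted 0.0974), Ncf4 at -0.53 and Rac2 at -0.30 (both 0.0281, adjusted 0.106), Cybb at -0.06 and Ncf1 at -0.01. Cybb over Cyba was 0.73 higher (exact permutation p = 0.0260, adjusted 0.0390), Ncf1 over Ncf4 0.52 higher (0.00649, adjusted 0.0156) and Rac2 over Rac1 0.95 higher (0.00433, adjusted 0.0156).

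Of the 14 partners in muscle 9 were called higher with the transgene and 1 lower, beside 24.8% of genes called lower, with a median log2 difference of 0.79. Those with the smallest adjusted p were Prex1, an exchange factor for Rac (0.89, edgeR adjusted p = 2.38e-06), Hvcn1 (0.91, 0.000246), Vav1 (1.61, 0.000430), Dock2, the Rac exchange factor of leukocytes (1.41, 0.00215), and Syk (1.04, 0.00254). Cybc1 was 0.47 higher and passed. Rac1 fell by 0.25 (edgeR adjusted p = 0.000171), a direction that reversed to 0.086 when only library size was used for scaling. Of the transcription factors Spi1 rose by 1.14, while Irf8 was at -0.02 (edgeR adjusted p = 0.920) and Irf1 at 0.06 (0.834). Duoxa1 (2.04), Nox4 (1.59), Duox2 (1.11) and Duox1 (1.08) passed. The antioxidant list had 7 genes called higher, led by Hmox1 (1.02), and 3 lower, Sod2 (-0.67), Nqo1 (-0.60) and Prdx5 (-0.54).

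Treatment called no member in muscle, beside 0.354% of genes called lower and 3234 genes with an unadjusted p under 0.05. The log2 differences from the same vehicle libraries were -0.56 for Rac2 (95% interval -0.94 to -0.17, edgeR adjusted p = 0.120), -0.52 for Ncf4 (-0.98 to -0.05, 0.212), -0.49 for Cybb (-1.04 to 0.05, 0.309), -0.41 for Ncf1 (-0.95 to 0.13, 0.399) and -0.19 for Cyba (-0.42 to 0.04, 0.350). DESeq2 called Rac2 (-0.55, adjusted p = 0.0487). In the lowest, median and highest treated libraries Cybb was at 2.00, 3.24 and 3.78 CPM, Cyba at 2.32, 2.73 and 3.12, and Ncf1 at 1.29, 1.76 and 2.84. Ncf4 was at 0.459, 0.595 and 0.759 CPM and Rac2 at 0.694, 1.07 and 1.43. Each of these ranges overlapped the vehicle transgenic range. The ratio of Rac2 to Rac1 was 0.44 lower with treatment without overlap (exact permutation p = 0.00433, adjusted 0.0156), and Hvcn1 alone of the 14 partners was called lower (-0.75, edgeR adjusted p = 0.0399).

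Against wild type, treated muscle was called higher for Ncf1 alone of the 5 (0.84, SE 0.25, edgeR adjusted p = 0.0156), beside 17.5% of genes. Ncf1 did not pass without treated replicate 4 (0.69, edgeR adjusted p = 0.0532) or with RNA integrity as a covariate (0.53, 0.182), and integrity numbers were 7.1 to 7.8 in wild type and 7.6 to 8.0 in treated muscle. Rac2 was at 0.47 (edgeR adjusted p = 0.0509), Cybb at 0.56 (0.0905), Ncf4 at 0.32 (0.273) and Cyba at 0.09 (0.552). Without wild type replicate 2 or treated replicate 6, Cybb (0.71 and 0.67) and Rac2 (0.64 and 0.57) passed as well, and without treated replicate 2 Rac2 passed (0.53). Ncf1 over Ncf4 (0.45) and Rac2 over Rac1 (0.51) were above wild type (exact permutation p = 0.00866, adjusted 0.0156 for both). Of the partners Prex1 (0.74) and Dock2 (0.92) were higher and Rac1 lower (-0.20), beside 17.7% of genes called lower. Spi1 (0.60), Duoxa1 (1.51) and Nox4 (0.86) were higher, and 6 antioxidant genes were higher and 2 lower.

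Cortex showed no called member in any comparison of arms. With the transgene 0.0148% of 20278 genes were called higher, with treatment 0.00986% were called lower, and 0.666% were called higher in treated against wild type. Unadjusted p-values under 0.05 numbered 752, 2302 and 3710 genes in these comparisons, and DESeq2 also called no member. Cybb was at 1.46, 1.16, 1.66, 0.498 and 1.11 CPM in the 5 wild type libraries, at 0.940, 1.61 and 2.39 (lowest, median, highest) in vehicle transgenic and at 1.497, 1.90 and 2.78 in treated cortex. The 3 arms overlapped. Its log2 differences were 0.49 with the transgene (95% interval -0.11 to 1.10, edgeR adjusted p = 0.995) and 0.75 in treated against wild type (0.15 to 1.36, 0.172).

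Mean levels of the other 4 members in wild type, vehicle transgenic and treated cortex were close. They were 2.75 ± 0.18, 2.90 ± 0.59 and 2.91 ± 0.58 CPM for Cyba, and 6.63 ± 0.42, 6.74 ± 0.93 and 8.13 ± 1.61 CPM for Ncf1. Ncf4 was at 0.943 ± 0.233, 0.944 ± 0.177 and 1.11 ± 0.23 CPM and Rac2 at 2.201 ± 0.25, 2.74 ± 0.46 and 2.71 ± 0.40. Their differences with the transgene were -0.02 to 0.30 on the log2 scale. With treatment all 5 members were at -0.02 to 0.27. No partner, other oxidase, antioxidant or transcription factor gene was called in cortex, nor was any of the 11 microglia and macrophage genes, whose sum was 368 to 429 CPM in wild type, 372 to 517 in vehicle transgenic and 381 to 469 in treated libraries. Spinal cord marker genes, summed, were at 0.0453 to 0.214 CPM in wild type, 0.106 to 15.6 in vehicle transgenic and 0.0499 to 78.4 in treated cortex, and their part was not tested.

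**Figure D4:**
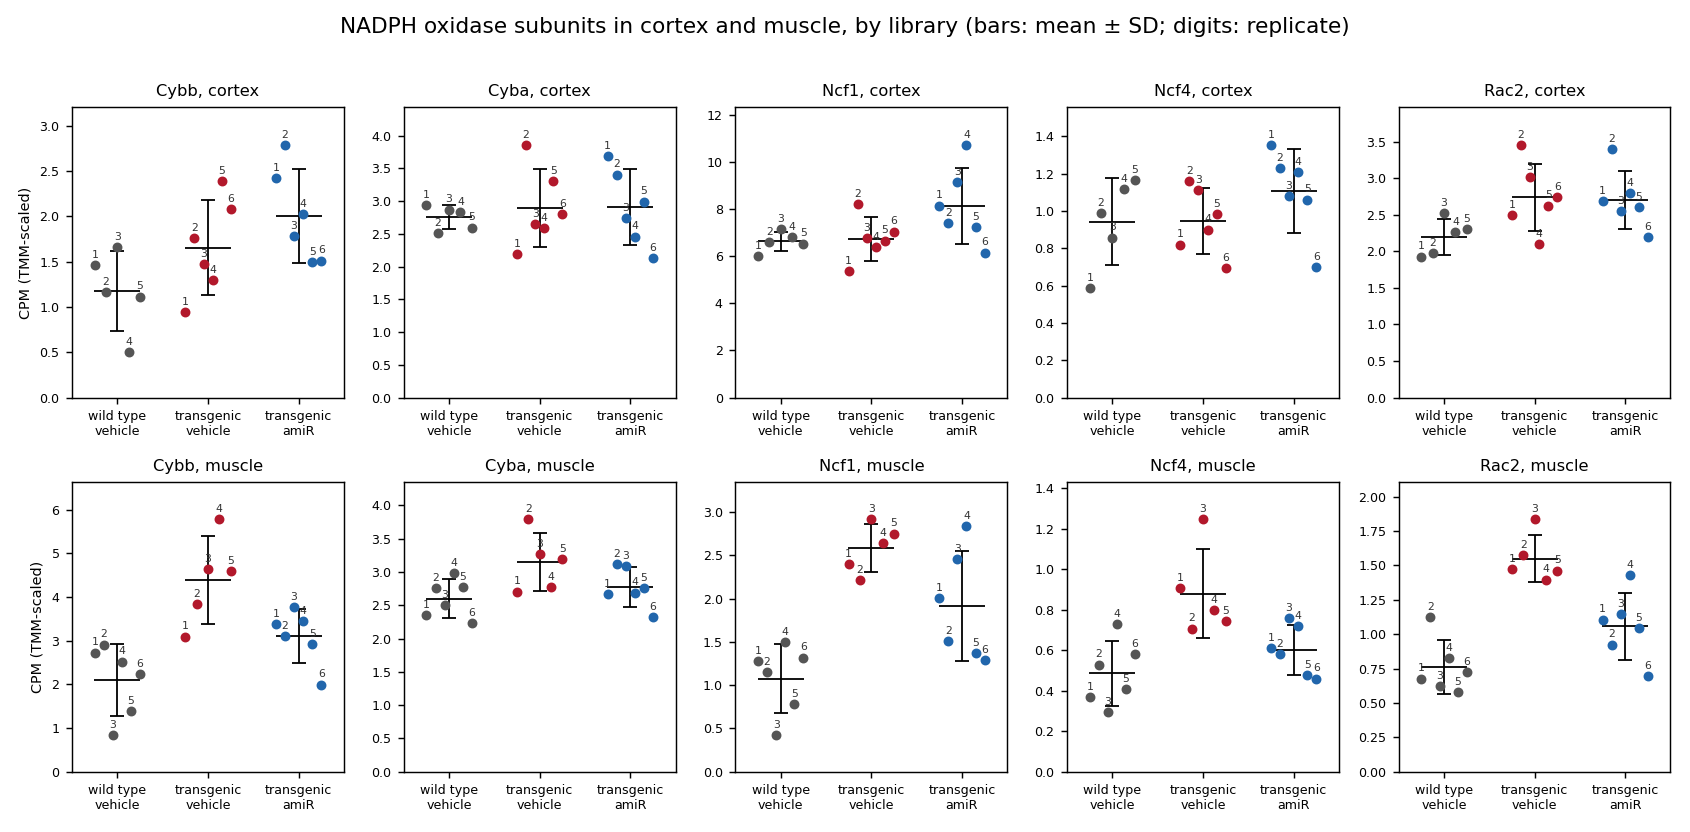
CPM (TMM-scaled within each tissue, linear axes from 0) of each subunit in the 17 cortex libraries (top row) and 17 muscle libraries (bottom row) by arm; points are libraries with their replicate number, bars the mean ± SD. The arms overlap for every gene in cortex, while vehicle transgenic muscle lies above wild type without overlap for Cybb, Ncf1 and Rac2.

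The transgene change differed between tissues when the difference itself was tested in a joint edgeR model of the 9 groups, which treats libraries of different tissues as separate mice. The change in spinal cord exceeded that in cortex for 5 of 5 members, beside 5.24% of 22316 genes, by 3.85 for Cybb (SE 0.42, edgeR adjusted p = 6.72e-09), 2.81 for Cyba, 2.34 for Ncf4, 1.60 for Ncf1 and 1.53 for Rac2. It exceeded that in muscle for 4 of 5, beside 14.2% of genes, by 3.27 for Cybb (SE 0.41, edgeR adjusted p = 1.29e-08), 2.58 for Cyba, 1.48 for Ncf4 and 0.82 for Rac2. For Ncf1 that difference was 0.36 (95% interval -0.20 to 0.91, edgeR adjusted p = 0.366). The change in cortex was below that in muscle for 3 of 5, beside 14.3% of genes, by -1.24 for Ncf1 (edgeR adjusted p = 0.000643), -0.86 for Ncf4 (0.0360) and -0.72 for Rac2 (0.0130), while Cybb was at -0.58 (0.350) and Cyba at -0.23 (0.580).

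The treatment change differed between tissues for no member. Between spinal cord and cortex the differences were -1.10 for Cybb (edgeR adjusted p = 0.287) and -0.97 for Cyba (0.0971), beside 0.0583% of genes called lower, with 2040 genes at an unadjusted p under 0.05. Between spinal cord and muscle Cyba was at -0.80 (edgeR adjusted p = 0.0809) and Cybb at -0.34 (0.753), beside 1.17% called lower. DESeq2 called Cyba in both. Between cortex and muscle the 5 members were at 0.18 to 0.75, beside 0.869% called higher.

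**Figure D5:**
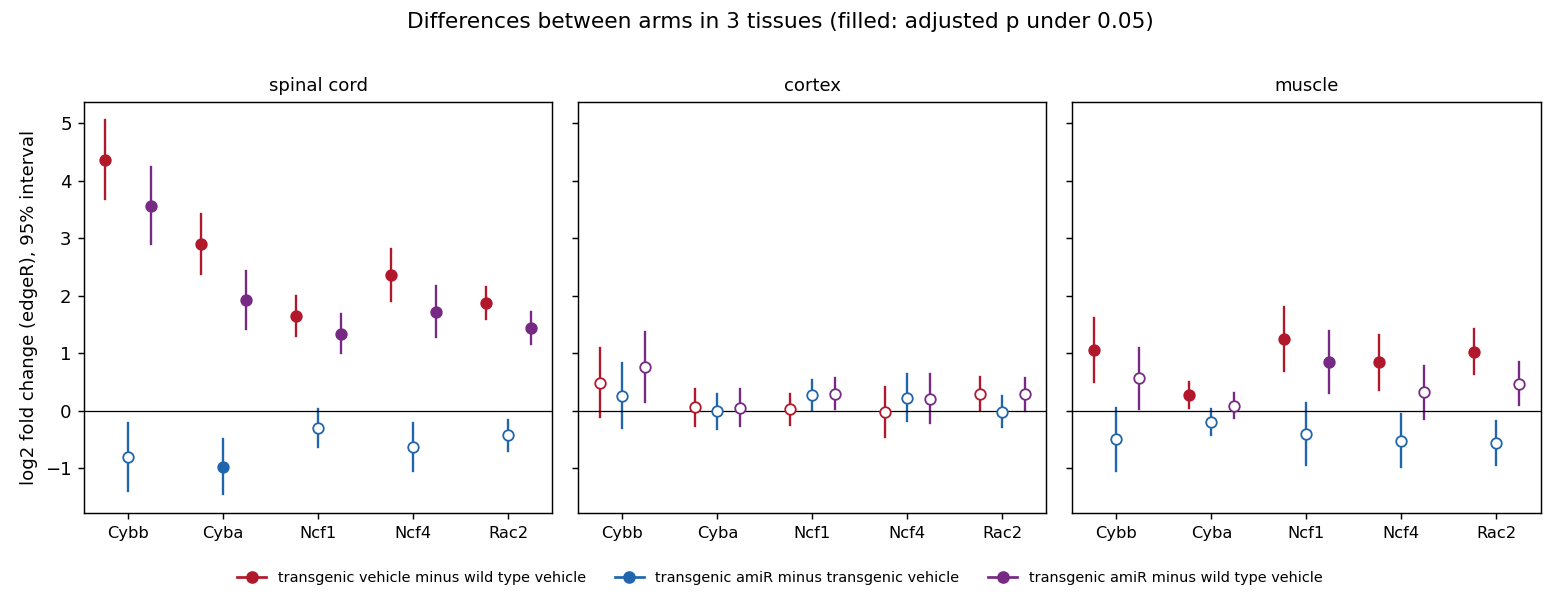
edgeR log2 fold changes of each subunit in spinal cord, cortex and muscle for the 3 comparisons of arms, with 95% intervals; filled points have an adjusted p under 0.05. The transgene comparison is filled for all 5 genes in spinal cord and muscle and for none in cortex, and the treatment comparison is filled for Cyba in spinal cord only.

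Among wild type tissues, Cybb was higher in spinal cord than in cortex (0.71, SE 0.31, edgeR adjusted p = 0.0434), beside 29.6% of genes, and the other 4 members were at -0.25 to 0.05. The Cybb call was lost when no filter on low counts was used. Compared with spinal cord, wild type muscle was lower in Ncf1 (-1.38, SE 0.20, edgeR adjusted p = 1.71e-08) and Rac2 (-0.49, SE 0.15, 0.00309), beside 48.7% of genes called lower. Cybb (1.21) and Cyba (1.25) were higher in muscle, beside 37.0% of genes, but with library size as the only scaling they were at -0.035 and -0.013. Ncf4 was at 0.13 (edgeR adjusted p = 0.580) and turned to -1.13 with that scaling. The median of all genes in this comparison was -0.34.

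On 1 scale over all 52 libraries, every member was highest in vehicle transgenic spinal cord and second in treated spinal cord. The mean of Cybb was 31.1 and 17.5 CPM there, then 7.42, 5.30 and 3.56 in vehicle transgenic, treated and wild type muscle. It was 1.58 CPM in treated cortex, 1.55 in wild type spinal cord, 1.31 in vehicle transgenic cortex and 0.941 in wild type cortex. Only 3 pairs of neighbours in the order of the 5 genes did not overlap: Cyba in vehicle and treated transgenic spinal cord (13.5 and 6.88 CPM), Cyba in wild type muscle and vehicle transgenic cortex (4.41 and 2.29), and Rac2 in treated spinal cord and vehicle transgenic muscle (4.77 and 2.62). All other neighbours did. For Cyba the order went on from treated spinal cord to vehicle transgenic (5.33), treated (4.73) and wild type muscle, and ended with the cortex arms (at most 2.29) and wild type spinal cord (1.86). Ncf1 alone had all 3 muscle arms last on this scale. It was at 14.5 and 11.6 CPM in vehicle and treated transgenic spinal cord. In cortex it was at 6.42, 5.34 and 5.30 CPM (treated, vehicle transgenic and wild type), and in wild type spinal cord at 4.73. In muscle it was at 4.37, 3.27 and 1.82 CPM (vehicle transgenic, treated and wild type). Ncf4 ran from 3.80 and 2.44 CPM in spinal cord through 1.48 and 1.03 in vehicle transgenic and treated muscle to between 0.747 and 0.873 in the other 5 groups. Rac2 ran from 6.504 CPM in vehicle transgenic spinal cord to 1.29 in wild type muscle. The place of muscle in these orders depends on the scaling. With library size only, wild type muscle minus spinal cord was at -0.035 for Cybb, -0.013 for Cyba and -1.13 for Ncf4 on the log2 scale. No order was made with that scaling, so the gap between muscle and cortex for Cyba was not checked under it.

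The genes with the pattern most like each member were found over the 9 group means, among 13618 genes, by the root mean square difference of centred log2 levels. For Cybb they were Lilrb4a (0.21), Msr1 (0.38) and Ms4a6c (0.43), an inhibitory receptor, a scavenger receptor and a member of the Ms4a membrane family. For Cyba they were the transcription factor Irf8 (0.16), the oncostatin M receptor Osmr (0.20) and Hacd4 (0.21). Ncf1 was nearest to Tifab (0.09), Pld4 (0.11) and the phosphatase Ptpn6 (0.12), and Ncf4 to progranulin Grn (0.08), Hcls1 (0.10) and Unc93b1 (0.14), the chaperone of endosomal Toll-like receptors. Rac2 was nearest to Unc93b1 (0.07), Spi1 (0.09) and Rab32 (0.12). These distances describe 9 means, and Cybb, with the widest range of the 5, had the most distant neighbours.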

How the data were processed

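Per the labels' protocols, RNA came from a Qiagen miRNeasy kit and poly(A) libraries for paired-end sequencing from a Kapa mRNA HyperPrep kit. The submitters' processing notes name bcl2fastq 2.20, STAR 2.7.2d, RSEM 1.3.2, DESeq2 1.34.0 and the builds GRCm38 and GRCh38. The authors deposited 1 table of expected counts per gene, not normalized, for 52 libraries, and the annotation release and strand setting were not given in the sources used here. The analysis rounded these values to whole numbers and took gene names from GENCODE M21. Genes were filtered by edgeR's filterByExpr, scaled by TMM and tested with the quasi-likelihood F test (edgeR 4.0.16, R 4.3.3) per tissue over the 3 arms with sex as a covariate. P-values were adjusted by Benjamini-Hochberg over all genes tested, with a threshold of 0.05. Differences between tissues came from 1 model of all 52 libraries, and differences between sexes from a model of arm by sex in spinal cord. SE is the log2 difference divided by the square root of its F value. Library-level ratios used log2 of CPM plus 0.5 and exact permutation tests (scipy 1.17.1). CPM values are edgeR's scaled values, and the vector, PFN1 and Atxn2 checks are unscaled. The tests were tried on simulated data with known changes.

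The members and gene lists were chosen with earlier results of these data known. Named genes are the members, the complex's own partners, the called genes with the 6 smallest adjusted p per list and comparison, and the 3 genes most like each member. Other list genes that the text names were chosen after their values were seen. Counts over the partner list include a gene whose values are not reported here. Alternatives were DESeq2 1.42.0, RLE or library-size scaling, no filter, no sex term, RNA integrity as a covariate, no mice over 36 weeks, arms by library name, a replicate block, a pseudocount of 0.1, another marker list, and each library left out in turn. The set without the 4 libraries with conflicting labels, and library-name arms for the ratio tests, were added after seeing the data. The labels do not state that replicate numbers pair libraries, so the numbers were not taken as pairs. Replicate numbers are those of the titles, and some library names carry other numbers. Like-numbered libraries of different arms had correlations of -0.30 to 0.49 (cortex), -0.21 to 0.42 (muscle) and -0.12 to 0.30 (spinal cord). Unlike-numbered libraries were not compared, so these values cannot show whether the numbers pair libraries. Depth per library was 66481829 to 111885193 counts.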

Additional observations from a re-analysis of the deposited data

Results flagged for a closer look

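For 12 tests the change with the transgene in a member differed between 2 tissues past an adjusted p of 0.05 in the joint edgeR model. The change in spinal cord exceeded that in cortex by 3.85 on the log2 scale for Cybb, 2.81 for Cyba, 1.60 for Ncf1, 2.34 for Ncf4 and 1.53 for Rac2. It exceeded that in muscle by 3.27 for Cybb, 2.58 for Cyba, 1.48 for Ncf4 and 0.82 for Rac2. Between cortex and muscle the difference was -1.24 for Ncf1, -0.86 for Ncf4 and -0.72 for Rac2, with the change in cortex the smaller. The vehicle arms of each tissue enter 2 of these sets of tests. Among the 45 groups of a member's values by tissue and arm, no single library passed the test for a value apart from its group. Its critical value was 0.71 for 5 libraries and 0.625 for 6, and in groups this small it can miss such a library. Single libraries still mattered: members called lower with treatment in spinal cord ran from 0 to 4 as each was left out.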

How the results depend on the processing

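In spinal cord 5 members higher with the transgene and 5 higher in treated against wild type held under every alternative run, as did 0 members in cortex. The number called lower with treatment in spinal cord was 1 with all libraries, 4 with DESeq2, and 0 with RNA integrity as a covariate, without mice over 36 weeks, with arms by library name or without the 4 libraries with conflicting labels. It ran from 0 to 4 as each library was left out. In muscle DESeq2 called 1 member lower with treatment. The muscle count against wild type was 1, became 2 with DESeq2, RLE scaling or no sex term, 4 with library size and 0 with RNA integrity, and ran from 0 to 3 by library. DESeq2 called 1 member lower in the treatment difference of spinal cord against cortex and 1 against muscle. For wild type tissues, the 1 member higher in spinal cord than cortex became 0 without a filter, and the 2 higher in muscle became 0 with library size. Relative to the markers, the list without homeostatic genes gave 3 members lower with the transgene and 2 lower in treated against wild type. With a pseudocount of 0.1, 2 members were higher in treated against wild type and 1 ratio was lower. With arms by library name, 0 members were lower with treatment relative to the markers in place of 2, and of the ratios 0 were higher and 0 lower in place of 1 each. By library these counts ran from 0 to 1 (lower with the transgene), 1 to 3 (lower with treatment) and 1 to 2 (higher in treated against wild type). The ratios called ran from 0 to 1 in spinal cord (lower with treatment), 0 to 1 in cortex (treated higher than wild type) and 1 to 2 in muscle (lower with treatment). Arms by library name mix libraries with and without vector sequence, so those counts cannot show whether a call holds. The cause of these shifts was not tested.

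Signs turned mostly near 0. In spinal cord Prdx2 with treatment was at -0.016 with arms by library name. In cortex with the transgene Ncf1 was at -0.10 with RNA integrity, and Ncf4 at 0.030 with library size, 0.0014 without sex and 0.11 with the replicate block. Cyba with treatment in cortex was at 0.0022 without sex, and Cyba in treated against wild type muscle at -0.0055 without mice over 36 weeks. Rac1 in muscle was at 0.086 with library size, and Ncf4 at 0.012 in the treatment difference of spinal cord against muscle. With that scaling, wild type muscle against spinal cord gave -0.035 for Cybb, -0.013 for Cyba and -1.13 for Ncf4. Relative to the markers without homeostatic genes Ncf4 was at -0.21 with the transgene and -0.26 in treated against wild type, and with a pseudocount of 0.1 Rac2 was at 0.084 with the transgene, -0.0043 with treatment and 0.080 in treated against wild type. Ncf1 over Ncf4 in treated muscle was at 0.0087 with that pseudocount. Over left-out libraries in cortex, Cyba ran from -0.020 to 0.14, Ncf1 from -0.040 to 0.082 and Ncf4 from -0.19 to 0.079 with the transgene, Cyba from -0.093 to 0.088 and Rac2 from -0.093 to 0.056 with treatment, and Cyba from -0.0062 to 0.13 in treated against wild type. Relative to the markers Rac2 ran from -0.053 to 0.013 with the transgene, -0.053 to 0.055 with treatment and -0.079 to 0.029 against wild type, and Ncf4 from -0.046 to 0.048 against wild type.

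With the replicate block the members called were 5, 1 and 5 in spinal cord, 0 in cortex, and 4, 0 and 1 in muscle; Cyba in muscle was lost. With that block 555 in place of 1037 genes were called with treatment in spinal cord, 119 in place of 228 in treated against wild type cortex and 3 in place of 190 with treatment in muscle. Treatment in spinal cord gave 2229 genes by DESeq2, 497 unfiltered, 359 with RNA integrity, 96 without older mice and 0 by library name. By library size it gave 2.75% of genes in place of 5.11%. In muscle it gave 969 by DESeq2, 596 by library size, 295 unfiltered, 474 with RNA integrity, 3 without sex and 1 without older mice. Cortex gave 9 in place of 5 by DESeq2 with the transgene. With treatment, in place of 4, it gave 364 by DESeq2, 9 unfiltered, 10 without sex, 7 with RNA integrity and 0 without older mice. Against wild type, in place of 228, it gave 1381 by DESeq2 but 24 by library size, 42 unfiltered, 11 with RNA integrity and 9 without older mice. For the transgene difference of spinal cord and cortex DESeq2 called 3286 genes in place of 2019. For treatment it called 154 in place of 13 (cord and cortex; 8 by library size), 757 in place of 449 (cord and muscle; 234 unfiltered) and 735 in place of 401 (cortex and muscle; 622 by library size, 239 unfiltered). The sex differences gave 1147 in place of 2024 by library size with the transgene and 2 in place of 0 unfiltered with treatment. At these depths Ncf4, with a mean below 1 CPM in each wild type tissue, had the thinnest counts.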
